A study of Homo sapiens with 6 samples.

Results

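Genes of the Wnt feedback loop were examined in SW839 cells, an established renal cell carcinoma (RCC) line, after knockdown of the E3 ubiquitin ligase RNF25. The 10 genes were chosen by symbol from the 30267 genes of the deposited table, and all 10 were found there. They are the R-spondin receptors LGR4, LGR5 and LGR6, the E3 ligases RNF43 and ZNRF3, the target genes AXIN2, NKD1 and SP5, and the transcription factors LEF1 and TCF7. LGR5 was the starting point of the choice, because it was already known to rise in this comparison, so its values are described here without a test. The question was whether the other 9 genes moved with it. Total RNA had been sequenced from 3 libraries with an RNF25 short hairpin (shRNF25) and 3 libraries with the pLKO vector (shControl). The shRNF25 library names carry a single hairpin name, and the control library names differ in form from one another. According to the study's methods, cells were infected with lentivirus and stable lines were made by puromycin selection, so the control cells carried a vector as well. Nothing in the labels says whether the 3 libraries of a group came from separate infections or cultures, and p-values therefore measure the spread between these libraries, which may be technical.

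Canonical Wnt signaling begins when a secreted Wnt ligand binds a Frizzled receptor together with LRP5 or LRP6, which spares β-catenin from destruction and lets it work with TCF/LEF factors on target genes. RNF43 and ZNRF3 remove Frizzled receptors from the cell surface, and R-spondins bound to LGR4, LGR5 or LGR6 take these ligases away again. Several of the genes that β-catenin switches on, such as AXIN2, NKD1, RNF43 and ZNRF3, dampen the signal, and LGR5 is best known as a Wnt target that marks stem cells of the intestine. In the kidney the pathway is known for its part in nephron formation.

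The promoter of SP5 is shown because it alone, of the promoters at hand for these genes, held the TCF/LEF core motif in a form searched here. RefSeq promoter windows on GRCh38.p14, which run from 250 bases before to 50 bases after a start site and are 300 bases long, were found for 6 of the 10 genes (LGR4, LGR6, RNF43, SP5, LEF1 and TCF7), in 10 windows. The letters CTTTGAA and CTTTGAT were searched on both strands. Other forms of the motif, such as CTTTGTT, were not searched, and a TCF7 window holds that form on the other strand. Of all 35116 windows of this length, 6.86% held at least 1 match and 9 windows (0.0256%) held 3 or more. The SP5 window held 3, which begin 148, 109 and 84 bases before the start site, and the other 9 windows of these genes held 0. A match is a description of letters and not a binding site, and a missing match concerns only the letters searched in this window. The 250 bases before the start site, chr2:170715087-170715336 on the plus strand, read as follows, with the matches in capitals.
SP5 promoter: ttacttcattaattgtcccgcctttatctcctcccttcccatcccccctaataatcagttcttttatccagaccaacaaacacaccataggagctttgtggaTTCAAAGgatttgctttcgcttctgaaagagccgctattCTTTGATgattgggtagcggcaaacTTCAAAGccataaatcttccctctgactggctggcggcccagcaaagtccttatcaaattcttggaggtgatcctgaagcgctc

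In GENCODE 29 on GRCh38 the genes span these positions. LGR4 covers 27365961 to 27472775 of chromosome 11 (minus strand), LGR5 71439770 to 71586310 of chromosome 12 (plus) and LGR6 202193901 to 202319781 of chromosome 1 (plus). RNF43 covers 58352500 to 58417595 of chromosome 17 (minus) and ZNRF3 28883592 to 29057487 of chromosome 22 (plus). AXIN2 covers 65528563 to 65561647 of chromosome 17 (minus), NKD1 50548330 to 50649249 of chromosome 16 (plus) and SP5 170715351 to 170718078 of chromosome 2 (plus). LEF1 covers 108047545 to 108168956 of chromosome 4 (minus) and TCF7 134114711 to 134151865 of chromosome 5 (plus). The table has 1 value per gene, so isoforms are not separated.

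Reads counted on genes ranged from 18647460 to 19943154 per library. Values are normalized counts, that is, reads divided by a size factor of the library. RNF25 itself was lower in each shRNF25 library (214, 246 and 265) than in any control library (694, 534 and 536). This is a log2 fold change of -1.27 (standard error 0.150), and the adjusted p from limma was 0.000585. Of the RNF25 exon length, 11.2% is shared with STK36 on the other strand. The shControl libraries varied more among themselves than the shRNF25 libraries did, with a biological coefficient of variation of 20.6% against 5.01%. Renal epithelial and carcinoma markers were present: KRT8, KRT18, KRT19 and EPCAM were at 4205 or more in every library and PAX8 between 76.7 and 140.3, whereas CA9 reached 50.7 at most. Summed levels of the renal list (8 of 10 markers matched, 0 called by limma) were 70846 to 90108 in shControl and 80045 to 83750 in shRNF25. Immune markers (3 of 5 matched) summed to at most 17.3 in any library. Endothelial markers (4 of 4) summed to 489 to 695 and to 494 to 645, although CDH5 was lower in shRNF25 (log2 fold change -4.12) and KDR was higher (1.78). Fibroblast markers (6 of 6) summed to 1108 to 1293 in shControl and 873 to 1022 in shRNF25, nearly all of it COL1A1, and DCN was at 1.03 or less. The part of these differences in the results on Wnt genes was not tested, and in bulk RNA fewer cells of a kind cannot be told apart from less RNA per cell.

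LGR5 was nearly absent from the control cells and clearly present after the knockdown. It had normalized counts of 2.21, 5.13 and 3.24 in the 3 shControl libraries, which are 2, 5 and 3 reads, and of 90.2, 114 and 95.3 in the 3 shRNF25 libraries, which are 99, 123 and 100 reads. The groups were far apart, with no library between them. The summed reads, scaled by the size factors, gave a ratio of 28.0, which rests on only 10 reads in shControl. On the log2(normalized count + 1) scale the difference was 4.52, and with 5 added in place of 1 it was 3.63, since the few control reads make it depend on that number. Of its exon length, 3.96% is shared with the antisense gene AC078860.1, which had a mean normalized count of only 0.512.

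**Figure D1:**
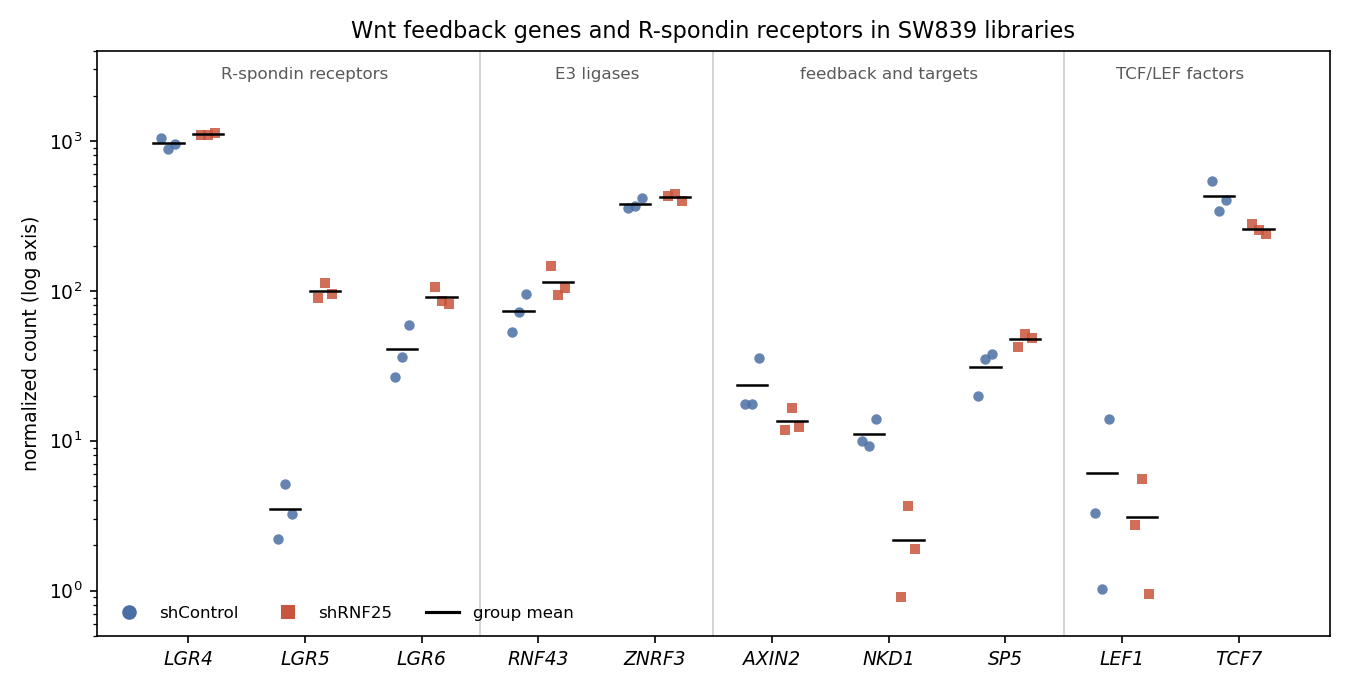
Normalized count (log axis) of the 10 genes in each of the 3 shControl libraries (circles) and the 3 shRNF25 libraries (squares), with black bars for group means. LGR5 goes from 2.21 to 5.13 in shControl to 90.2 to 114 in shRNF25, NKD1 is below 4 in every shRNF25 library, and the other genes differ less.

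For all genes, log2(normalized count + 1) was compared between the groups with limma, and a gene was called when its Benjamini-Hochberg adjusted p was below 0.05 and its fold change at least 1.5. Of the 16554 genes tested, 15.7% were called, 8.65% as higher and 7.1% as lower. The test required a normalized count of 10 or more in at least 3 libraries, which 7 of the 9 genes other than LGR5 had. LGR6 was called higher, TCF7 was called lower, and LGR4, RNF43, ZNRF3, AXIN2 and SP5 were not called. NKD1 and LEF1 were below that level, and LGR5 itself passed it only through the shRNF25 libraries. With edgeR's quasi-likelihood test and with DESeq2 on the recovered reads, LGR6 and TCF7 were again the genes called. The median log2 fold change of the 7 genes was 0.21, against -0.01 for all genes tested. Groups without overlap were seen for LGR4, LGR6 and SP5 in the upward direction, beside 20.7% of all genes tested. In the downward direction they were seen for AXIN2 and TCF7, beside 21.8%. Both directions together came to 5 of the 7 genes, beside 42.5%.

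Among the R-spondin receptors, LGR6 was the other gene that rose. The normalized counts of LGR6 were 26.5, 35.9 and 59.4 in shControl and 106, 84.96 and 82.0 in shRNF25, a mean of 40.6 ± 16.9 (SD, n = 3) against 90.9 ± 12.9 (SD, n = 3). No shControl library reached the lowest shRNF25 library. The log2 fold change was 1.21 ± 0.285 (standard error), with an adjusted p of 0.0164 from limma. An exact permutation test of the 6 values gave p = 0.1 (two-sided), which is the smallest value that 3 libraries against 3 allow. The call held without shControl replicate 1 (0.95, adjusted p = 0.0132 from limma) and without shControl replicate 3 (1.52, adjusted p = 0.00293). Without shControl replicate 2 the adjusted p was 0.0543, and without shRNF25 replicates 1, 2 or 3 it was 0.0856, 0.0550 and 0.0506, while the log2 fold change in these 4 fits stayed between 1.10 and 1.28.

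LGR4, the most abundant of the R-spondin receptors per length, was not called. Its normalized counts were 1053, 881 and 953 in shControl and 1099.8, 1099 and 1138 in shRNF25. The groups did not overlap, by a margin that was small beside the level. The log2 fold change of 0.21 had a 95% interval of -0.03 to 0.46, or 1.37-fold at its upper bound, and an adjusted p of 0.199 from limma. Without shControl replicate 1 the adjusted p was 0.0192 at a log2 fold change of 0.28, still short of the fold change required.

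Since genes differ in length, levels were compared between genes only after division by the exon length in kilobases. Within each library the summed level per kilobase of LGR4, LGR5 and LGR6 was split among the 3 genes. LGR4 made up 94.1% ± 2.34 of that sum in shControl and 81.9% ± 1.21 in shRNF25 (SD, n = 3 each), and it held at least 81.2% in every library. LGR5 accounted for 0.427% ± 0.213 and then 8.86% ± 1.11, and LGR6 for 5.52% ± 2.28 and then 9.26% ± 1.34. The sum itself was 161 ± 12.5 per kilobase in shControl and 214 ± 1.12 in shRNF25. LGR4 was thus the main R-spondin receptor transcript in both groups. The R-spondins (RSPO1 to RSPO4) were not analysed here.

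**Figure D2:**
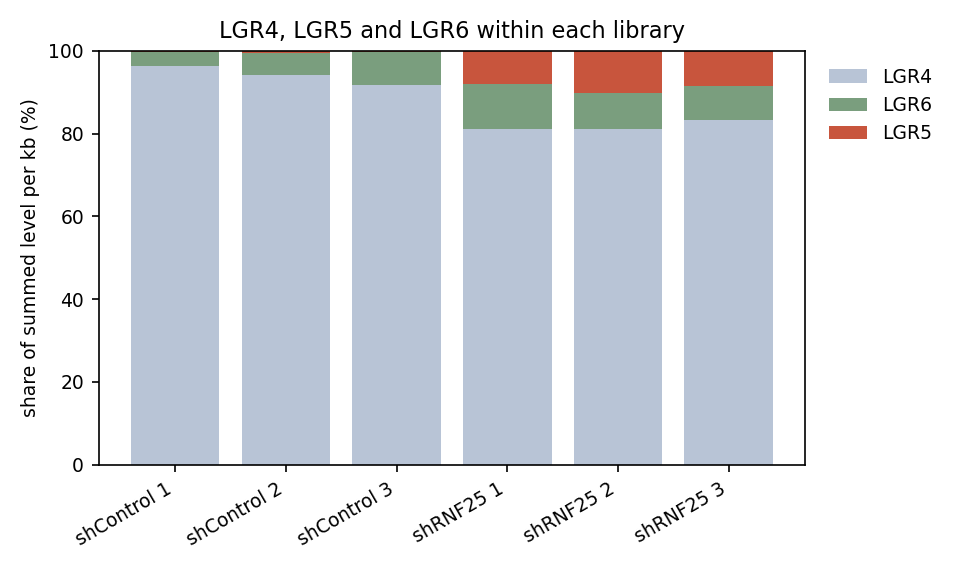
Share (%) of LGR4, LGR6 and LGR5 in their summed normalized count per kilobase of exon, as stacked bars for each of the 6 libraries. LGR5 is at 0.661% or less in each shControl library and between 8.04% and 10.1% in each shRNF25 library.

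The E3 ligases that R-spondins control were not called. RNF43 had normalized counts of 53.1, 71.8 and 94.98 in shControl and 147, 94.2 and 105 in shRNF25, and the groups overlapped because shControl replicate 3 exceeded shRNF25 replicate 2. Its log2 fold change was 0.66 (95% interval 0.09 to 1.23, adjusted p = 0.0935 from limma). Without shControl replicate 3 it was 0.86 with an adjusted p of 0.0355, and RNF43 was then called. In GENCODE 29 the gene AC004687.2 (mean normalized count 1.87) shares 57.6% of the exon length of RNF43 on the same strand. TSPOAP1-AS1 (mean normalized count 9.57) shares 20.3% on the other strand. How reads in these stretches were assigned depends on the annotation and settings of the counting, so the RNF43 values are uncertain.

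ZNRF3, the close relative of RNF43, had normalized counts of 355, 366 and 414 in shControl and 429, 446 and 400.3 in shRNF25. The lowest shRNF25 library was below the highest control library, so the groups overlapped. Its log2 fold change was 0.17 (95% interval -0.10 to 0.44, or 1.36-fold at the upper bound), with an adjusted p of 0.353 from limma.

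AXIN2, a scaffold of the β-catenin destruction complex and a widely used readout of canonical Wnt activity, was not called. Its normalized counts were 17.7, 17.4 and 35.6 in shControl and 11.8, 16.6 and 12.4 in shRNF25. The shRNF25 values were the lower ones throughout, by a narrow margin against shControl replicates 1 and 2. The log2 fold change was -0.69 (95% interval -1.45 to 0.08, adjusted p = 0.183 from limma), and without shControl replicate 3, the highest library, it was -0.36. The upper bound of the interval corresponds to a 1.06-fold rise. Of the AXIN2 exon length, 25.2% is shared on the same strand with AC004805.1, which has no value in the deposited table. How reads in this stretch were assigned is not known, so the AXIN2 values are uncertain as well.

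NKD1, an antagonist that binds the Dishevelled proteins, had few reads. There were 9, 9 and 13 reads in shControl and 1, 4 and 2 reads in shRNF25, or normalized counts of 9.95, 9.23 and 14.0 against 0.911, 3.69 and 1.91. No overlap was seen between the groups. The ratio of summed reads was 0.196 (exact 95% interval 0.0729 to 0.454, counting error only). Because NKD1 missed the filter on low values, it was tested only in the fit without a filter, where its log2 fold change was -2.004 with an adjusted p of 0.0196 from limma, beside 3.79% of the 30267 genes called lower in that fit.

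SP5, a zinc finger transcription factor whose promoter is printed above, was not called. Its normalized counts were 19.9, 34.9 and 37.8 in shControl and 41.9, 51.7 and 48.6 in shRNF25. The shRNF25 values were the higher ones throughout. The log2 fold change was 0.65 (95% interval 0.04 to 1.26), with an adjusted p of 0.123 from limma. Without shControl replicate 1, the lowest library, it was 0.37.

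TCF7, which encodes TCF-1, a DNA-binding partner of β-catenin, was lower after the knockdown. Its normalized counts were 538, 341 and 406 in shControl and 278, 254 and 238 in shRNF25, a mean of 428 ± 101 (SD, n = 3) against 257 ± 19.95 (SD, n = 3). The groups did not overlap. The log2 fold change was -0.71 ± 0.174 (standard error), with an adjusted p of 0.0193 from limma. Without shControl replicate 1, the highest library, it was -0.54 (adjusted p = 0.00793 from limma), short of a fold change of 1.5, and without shRNF25 replicates 1, 2 or 3 the adjusted p was 0.0592, 0.0759 and 0.0906.

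LEF1, the other TCF/LEF factor among the 10 genes, was hardly expressed. It had 3, 1 and 13 reads in shControl and 3, 6 and 1 reads in shRNF25, so that a single library, shControl replicate 3, held most of the control reads. The groups overlapped, and the ratio of summed reads was 0.511 (exact 95% interval 0.209 to 1.18, counting error only), so no difference was detectable at this depth. Per kilobase, LEF1 made up 0.581% ± 0.733 of the summed TCF/LEF level in shControl and 0.315% ± 0.217 in shRNF25 (SD, n = 3 each). TCF7L2 and TCF7L1 held most of that sum, with 42.2% ± 4.596 and 36.9% ± 1.95 in shControl and 51.1% ± 0.343 and 34.1% ± 1.72 in shRNF25. TCF7 held 20.3% ± 3.30 and 14.5% ± 1.82, and the ranges of its share overlapped between the groups.

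**Figure D3:**
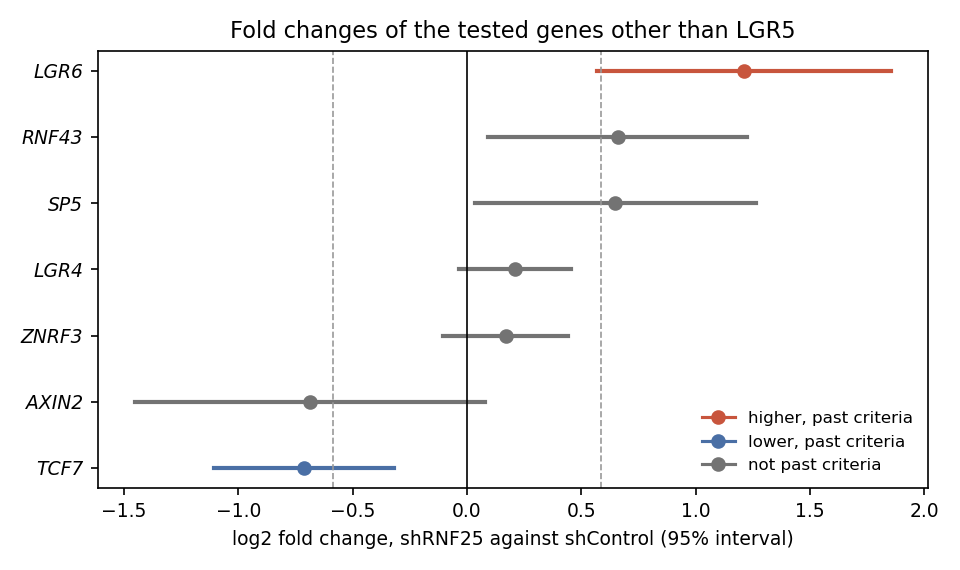
Log2 fold change (shRNF25 against shControl) of the 7 tested genes other than LGR5, with 95% intervals from limma and dashed lines at a fold change of 1.5 in either direction. LGR6 (1.21) and TCF7 (-0.71) are past the criteria, and AXIN2 and TCF7 lie on the other side of 0 from LGR6, RNF43, SP5, LGR4 and ZNRF3.

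Per kilobase of exon, the order of mean levels in shControl was LGR4 (152), ZNRF3 (54.3), TCF7 (42.6), SP5 (15.0), RNF43 (9.77), LGR6 (8.86), AXIN2 (4.51), LEF1 (1.14), LGR5 (0.672) and NKD1 (0.635). The ranges of neighbors overlapped except between LGR4 and ZNRF3, TCF7 and SP5, and AXIN2 and LEF1. In shRNF25 LGR5 stood at 19.0 per kilobase, between LGR6 (19.8) and RNF43 (15.4), and its range overlapped with that of each of them. SP5 (23.0) and TCF7 (25.5) could not be separated by their ranges in shRNF25 either. AXIN2 (2.61), LEF1 (0.574) and NKD1 (0.125) were then the last in order.

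The profile of LGR5 across the 6 libraries was also compared with those of the 16553 other genes tested, as a description. The highest Pearson correlations were those of PHTF1, SH2B1, SSTR5, MRPL20-DT and TMEM200C, from 0.998 to 0.999, and 64 genes lay above 0.99. All 6 points share the division into groups, so any gene with a clean step between the groups has a high value. TMEM200C had mean normalized counts of 8.87 in shControl and 98.9 in shRNF25, SSTR5 of 0.342 and 51.1, and PHTF1 of 383 and 553. None of the other 9 Wnt genes was among these 5.

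The remaining pathway was covered by a list of 102 genes in 7 roles. Of these, 87 were matched in the table and 70 were tested, and the other 15, among them the 4 R-spondins, WIF1, DKK2 and DKK4, were not analysed here. Past the criteria, 6 genes were higher and 11 were lower in shRNF25, which is 24.3% of the 70 beside 15.7% of all genes tested. The list was drawn up with earlier results of these data known, so these shares are a description. The median log2 fold change of the 70 was -0.02, against -0.01 for all genes tested. Without shControl replicate 3, 12 genes of the list were higher and 10 were lower. Calls over all genes tested also rose in that fit, from 1432 to 1725 higher and from 1175 to 1269 lower.

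Frizzled receptors held the largest rise among these 70 genes. FZD4, a receptor for Wnts and for norrin, had normalized counts of 527, 530.5 and 682 in shControl and 2584, 2439 and 2404 in shRNF25. The groups were far apart, at 2.10 on the log2 scale (standard error 0.127) and an adjusted p of 1.69e-05 from limma. Of the FZD4 exon length, 18.9% is shared with PRSS23 on the other strand (mean normalized count 2466), and since the strand setting of the counting is not known, the FZD4 values may hold or lack reads from this stretch. FZD8 went from a mean of 2471 ± 492 to 4649 ± 133 (SD, n = 3 each; log2 fold change 0.93) and FZD1 from 38.5 ± 9.68 to 94.2 ± 8.22 (log2 fold change 1.29). RYK, a Wnt receptor with a kinase-like domain, was lower at -0.72. Of the 13 receptors tested, 3 were called higher and 1 lower, beside 8.65% and 7.1% of all genes tested, and the co-receptor LRP5 (0.09) and PTK7 (-0.33) were not called. The summed level per kilobase of the 9 Frizzled genes in the table was 1646 ± 97.9 in shControl and 2563 ± 22.6 in shRNF25. FZD4 took 4.76% ± 0.466 of that sum in shControl and 13.1% ± 0.618 in shRNF25 (SD, n = 3 each).

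Among ligands and their secretion factors, 2 of the 14 genes tested were called higher and 3 lower, beside 8.65% and 7.1% of all genes tested. WNT3A, a classical activator of β-catenin, had normalized counts of 23.2, 15.4 and 35.6 in shControl and 86.6, 84.96 and 92.5 in shRNF25. All shRNF25 values were above the control values, with a log2 fold change of 1.87 and an adjusted p of 0.0023 from limma. WNT3 had a log2 fold change of 0.70, and without shRNF25 replicate 1 its adjusted p from limma was 0.059. WNT10B (-0.85), WNT9A (-0.59) and PORCN (-0.64), the enzyme that attaches a lipid to Wnt proteins, were lower. WNT9A lost its call under 11 of the 17 alternatives and PORCN under 8, in both cases including the fits without shControl replicate 2 or 3 and those without each shRNF25 library in turn. Per kilobase, WNT7B and WNT9A were the leading ligands, with 25.4% ± 4.56 and 30.3% ± 3.11 of the summed level of the Wnt genes in shControl and 34.6% ± 1.94 and 19.3% ± 1.42 in shRNF25. WNT7B (log2 fold change 0.53) and the Wnt carrier WLS (0.04) were not called, but WNT7B was past the criteria without shControl replicate 3 (0.80, adjusted p = 0.00201 from limma) and after scaling to total reads (0.73, adjusted p = 0.0399).

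Of the 17 inhibitors listed, 5 were tested, and 2 of them were called lower, beside 7.1% of all genes tested. NKD2, the relative of NKD1, had normalized counts of 114, 132 and 106 in shControl and 26.4, 36.0 and 33.4 in shRNF25. The groups were well separated, at -1.85 on the log2 scale (standard error 0.197) and an adjusted p of 0.000364 from limma. NKD1 and NKD2 thus had the same sign, NKD2 on more reads. KREMEN2, a receptor for DKK proteins that shares 13.8% of its exon length with PKMYT1 on the other strand (mean normalized count 1167), was lower at -1.04, and KREMEN1 (-0.33) was not called. DKK1, a secreted antagonist of LRP5 and LRP6, had normalized counts of 12721 ± 2800 (SD, n = 3) and 17084 ± 498 (SD, n = 3). Its log2 fold change of 0.45 had an adjusted p of 0.0645 from limma, and quantile normalization (0.74), scaling to total reads (0.65) and leaving out shControl replicate 3 (0.62) each brought it past the criteria.

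Of the 16 genes of cytoplasmic transduction tested, limma, edgeR and DESeq2 each called 0, and 1 had an unadjusted p below 0.05 in limma. CTNNB1, which encodes β-catenin itself, was at -0.23 (adjusted p = 0.156 from limma), CSNK1A1, which shares 37.4% of its exon length with AC021078.1 on the same strand, at 0.16 and DVL1 at -0.07, and DVL1 changed sign under quantile normalization. The small differences of LRP5, WLS, BCL9 and BCL9L also changed sign under at least 1 alternative. Among 11 nuclear factors, TLE4, a Groucho-type co-repressor, was the 1 gene called (lower, at -0.76; 7.1% of all genes tested were lower), and BCL9 (-0.14), BCL9L (-0.11) and PYGO2 (0.16) were not called. TLE4 lost its call without shControl replicate 1, where the log2 fold change was -0.57, and without shRNF25 replicates 1, 2 or 3, where the adjusted p from limma was 0.0761, 0.0653 and 0.0612.

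The other reported target genes moved in opposite directions, with 1 called higher and 4 lower of 11 tested, beside 8.65% and 7.1% of all genes tested. TNFRSF19, also known as TROY and expressed in intestinal stem cells, had mean normalized counts of 55.9 ± 13.4 in shControl and 129 ± 4.78 in shRNF25 (SD, n = 3 each). Its log2 fold change was 1.22, with an adjusted p of 0.00362 from limma. MYC was lower at -0.75, the adhesion receptor CD44 at -1.02, the ephrin receptor EPHB2 at -1.13 and SP8, a relative of SP5, at -0.98. CCND1, the gene of cyclin D1, was at 0.08 and not called. Several of these genes, MYC and CD44 among them, are known targets of other pathways too.

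**Figure D4:**
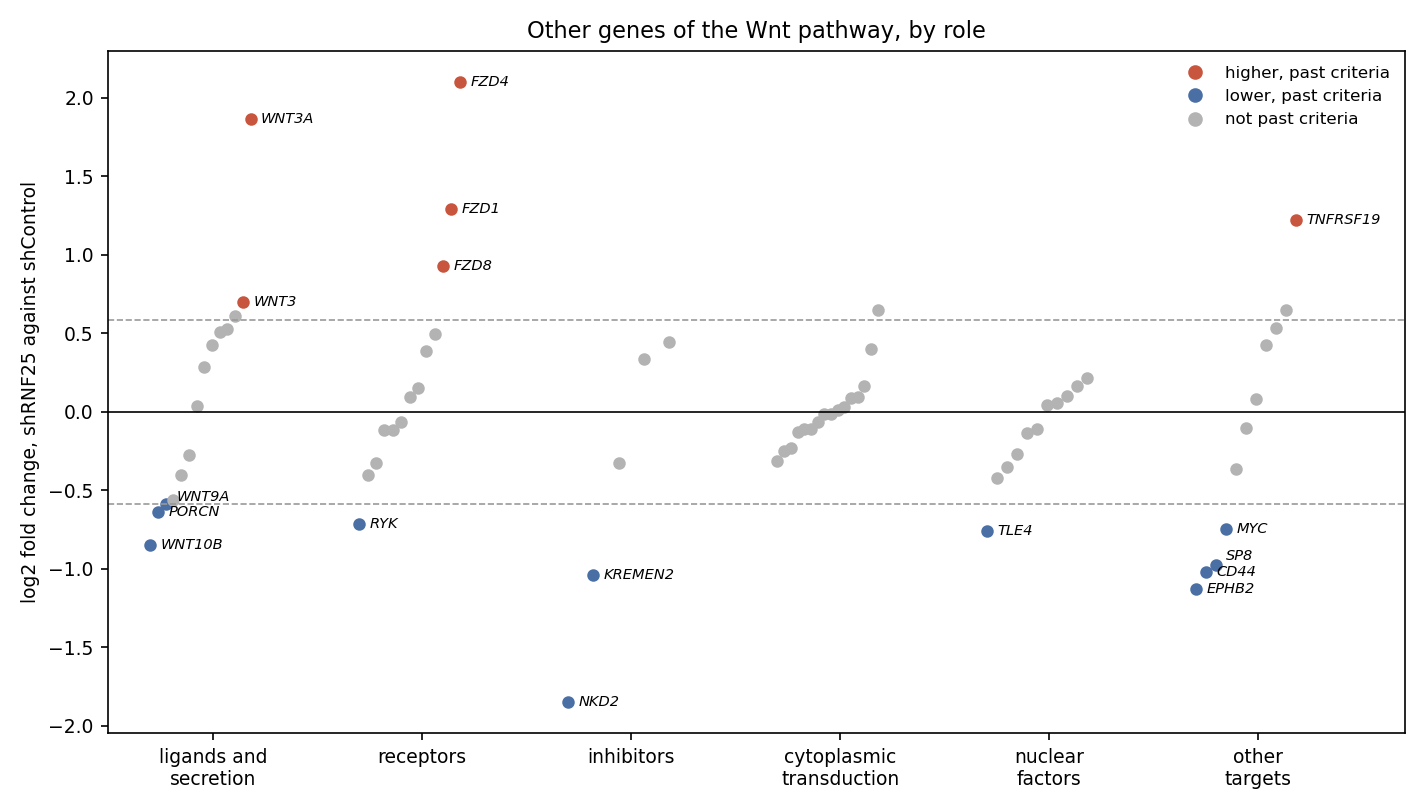
Log2 fold change (shRNF25 against shControl) of the 70 tested genes of the pathway list, in 6 groups by role, with dashed lines at a fold change of 1.5 and names for the 17 genes past the criteria. FZD4 (2.10), WNT3A (1.87), FZD1 (1.29) and TNFRSF19 (1.22) have the highest values and NKD2 (-1.85) the lowest, and no gene of the cytoplasmic group is past the criteria.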

How the data were processed

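Total RNA of SW839 cells was depleted of ribosomal RNA and sequenced by the authors from stranded libraries, and fastp, HISAT2 and HTSeq on GRCh38 are named in the submitters' processing notes. Versions, annotation and strand setting of the counting are not given in the sources used here. The authors deposited a normalized count per gene and library, a signal equal to reads divided by the DESeq2 size factor (0.905 to 1.10). Whole reads came back for 100% of values within 0.01 reads. The deposited scaling was kept, with no correction for length.

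Genes that reached 10 in 3 or more libraries were fitted as log2(value + 1) with limma 3.58.1 (eBayes with a trend) in R 4.3.3. Calls required an adjusted p below 0.05 and a 1.5-fold change, as in the study's methods. Single genes also had two-sided exact permutation tests. On the recovered reads, edgeR 4.0.16 called 1525 genes higher and 1133 lower and DESeq2 1.42.0 called 1414 and 1220, as alternatives to 1432 and 1175. The code was tested on simulated data with large changes and the same spread in both groups, whereas the spread of these groups differed. GENCODE 29 gave positions and exon lengths, matched by symbol.

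The 10 genes and the lists were chosen with earlier results of these data known. Named pathway genes were those called, up to 8 in each direction, and the 3 most abundant of each role, together with the 5 genes most like LGR5, and PORCN and RYK were added after their values were seen. Scaling to the total reads of a library and library weights by group were chosen after seeing the data.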

Additional observations from a re-analysis of the deposited data

How the results depend on the processing

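RNF25 remained past the criteria under all 17 alternatives, with log2 fold changes from -1.34 to -1.07. Scaling to the total reads of each library shifted the median log2 fold change of all genes by 0.205 and the share of higher genes among calls from 54.9% to 77.7%. It gave 2 higher (LGR6 and RNF43) and 0 lower of the 9 genes beside LGR5, and 17 higher and 6 lower pathway genes. Under it TCF7 and RYK were at -0.51, TLE4 at -0.55 and MYC at -0.54, short of the fold change required. Without a filter on low values 2 of the 9 genes were lower, since NKD1 then entered the test. Leaving out 1 library gave 0 to 2 higher and 0 to 1 lower of the 9 genes, and 5 to 12 higher and 8 to 10 lower pathway genes. Calls over all genes changed as well, from 1432 higher and 1175 lower in the main fit. Without 1 shRNF25 library they were 748 to 831 higher and 813 to 827 lower. Without 1 shControl library they were 1251 to 1725 higher and 1083 to 1269 lower. Some small changes of genes that were not called reversed. DVL1 was at 0.154 after quantile normalization, 0.140 with total reads and -0.221 to 0.0604 with 1 library left out. BCL9L was at 0.0662 and 0.0950 under the same scalings and BCL9 at 0.0713 with total reads. WLS ranged from -0.0155 to 0.130 and LRP5 from -0.0176 to 0.208 with 1 library left out. The causes were not tested beyond the construction of each alternative.

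With the replicate number as a block, 1 higher and 1 lower of the 9 genes and 7 higher and 11 lower pathway genes were called, and all genes gave 1398 higher and 1193 lower against 1432 and 1175. Same-numbered libraries did not deviate together (r = -0.0638, -0.0874 and 0.0471), and no shControl library correlated best with its own number. No pairing by number was thus seen, although 3 libraries per group are too few to exclude one. Depth limits what can be said of NKD1, LEF1 and LGR5 in shControl, each with 13 reads or fewer per library. The labels give no batch, and one that followed the groups could not be separated from the knockdown. The treatment text of the control samples also names the shRNF25 plasmid, and the groups were taken from the sample titles.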
